A study of Mus musculus with 65 samples.

Results

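The 44 genes described here encode machinery of the endoplasmic reticulum (ER): chaperones and oxidoreductases that fold proteins, the channel that imports them, the enzymes that cut and glycosylate them on entry, and the system that removes those that fail to fold. They were taken by symbol from a list of such genes and not by any measured value, though the list was chosen with earlier results of these data known. All 44 of them were found among the 55292 gene symbols of the table. All 44 were also measured, which means at least 5 counts per 1000000 counts (CPM) in the genotype with the higher level, a mark that 10842 genes of the table reached.

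The series holds 65 single outer hair cells (OHCs), the cells that amplify sound in the mouse cochlea, picked by hand at postnatal day 10. The 48 WT cells came from mice with the alleles Slc26a5FlpO/+ and Rosa26FSF-H2BEGFP/+, in which a recombinase expressed from the OHC motor gene Slc26a5 turns on a green nuclear label. The 17 cells of the other genotype had the same driver and label and, in addition, Atoh1Cre/+ and Casz1flox/flox, so that Cre made under Atoh1, a gene of young hair cells, can delete Casz1, which encodes a zinc finger transcription factor. The design compares OHCs in which Casz1 can be deleted with OHCs in which it cannot. No group carried Cre without the floxed alleles, and the labels name no animal, so how many mice stand behind each genotype is not given.

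Proteins bound for the cell surface, for secretion or for the organelles of the secretory route enter the ER through the Sec61 channel while they are being made. Signal peptidase removes the leader, oligosaccharyltransferase attaches a sugar tree, and the lectins calnexin and calreticulin hold the new glycoprotein while disulfide isomerases fold it. The Hsp70-type chaperone Hspa5 (BiP) binds exposed chains, and chains that stay misfolded are pulled back to the cytosol through a ubiquitin ligase complex, a route called ER-associated degradation. When unfolded proteins accumulate, the factors ATF6 and XBP1 switch on many of these genes through promoter motifs known as ER stress elements.

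Because each library is 1 cell and no animal is named, each genotype counts as 1 sample. No test was run, no p-value is given, and every comparison below describes these libraries. CPM for a genotype was computed from counts summed over its cells, and ratios are given as log2 of CKO over WT. Intervals are at 95%. The order-statistic interval of a median treats genes as independent, and the binomial interval of a share of cells treats cells as independent. Neither is a test of genotype. Intervals of CPM and of single log2 ratios cover counting error only. The reads carry no molecular identifiers and are not independent molecules, so these intervals are far narrower than the spread between cells. That spread is shown by the values per cell and by the pair share, the percentage of the 816 pairs of 1 CKO-labelled and 1 WT cell in which the CKO-labelled cell was higher.

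Total counts per cell were alike, with a median of 11520603 in WT cells (7458126 to 17107710) and 12269271 in CKO-labelled cells (8239671 to 15320549). Casz1 itself was at 53.3 CPM in WT and 46.2 CPM in CKO-labelled cells; the sources used here do not give the deleted exons, so this level does not check the label, and the second group is called CKO-labelled throughout. The 5 OHC markers had counts in every cell. Against all WT cells, 4 were higher in CKO-labelled cells (Slc26a5 at 931 and 1175 CPM, Ocm at 36667 and 49172 CPM). Strip2 was lower, at 1410 and 977 CPM. All 3 general hair cell markers were lower against all WT cells, with Otof at 170 and 81.6 CPM (pair share 45.96%). The inner hair cell marker Slc17a8 was counted in 14 of 48 WT and 6 of 17 CKO-labelled cells (12.1 and 17.1 CPM). Its highest cells held 102 and 82.8 CPM. Tbx2, also of inner hair cells, was counted in 1 and 2 cells. Among markers of other cells, C1qa and Cx3cr1 of macrophages and Pou3f4 and Tbx18 of mesenchyme had no count in either genotype. Sox2, of supporting cells, was counted in 2 of 48 WT cells and in no CKO-labelled cell. Others of these lists were counted: C1qb in 13 of 48 WT and 1 of 17 CKO-labelled cells (18.8 and 3.03 CPM), the glial gene Cnp in 41 and 10 cells (119 and 64.2 CPM), Col1a1 in 29 and 10 cells (12.6 and 8.44 CPM), and Lum in 5 and 2 cells (16.5 and 0.010 CPM). Summed per cell, macrophage markers reached 188 and 73.4 CPM, mesenchyme markers 546 and 117 CPM, and glial markers 459.5 and 220.4 CPM in the highest WT and CKO-labelled cell. Of the neuronal markers, Snap25 was at 186 and 171 CPM and Map2 at 243 and 317 CPM. The 10 supporting cell markers summed to 1031 to 5718 CPM per WT cell and 907 to 4042 CPM per CKO-labelled cell, most of it S100a1 (2753 and 1983 CPM). Fgfr3 was counted in 30 of 48 WT and 6 of 17 CKO-labelled cells (40.7 and 12.2 CPM), and Gjb6 in 9 and 2 cells (10.2 and 1.30 CPM). Higher in CKO-labelled cells were Gjb2 (10 and 1 cells, 4.46 and 7.98 CPM) and Sox10 (3 and 2 cells, 0.5585 and 2.74 CPM).

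The part of these other markers in the results below was not tested. Several further features of the cells moved with genotype. Xist without transcripts of the Y chromosome, called the Xist pattern here, was seen in 9 of 48 WT and 15 of 17 CKO-labelled cells. The mitochondrial share of counts had a median of 6.52% in WT and 4.76% in CKO-labelled cells. Handling of tissue can induce immediate early genes. The summed level of 13 of them ran from 6.98 to 4348 CPM with a median of 1217 in WT cells. In CKO-labelled cells it ran from 142 to 10898 CPM with a median of 2407. Of the 12 measured genes of that list 11 were higher, beside 50.4% of all measured genes. At least 2-fold higher were 6, beside 15.1%. Among cells with the Xist pattern 9 of 12 were higher, beside 52.3%, at 1980 and 2304 CPM summed. Earlier results of these data had also set apart WT cells 1 to 11, 12 to 45 and 46 to 48 by their numbers in the labels, although the labels name no batch; 8 of the 9 WT cells that showed Xist fall in the first run. The part of the mitochondrial share and of the immediate early genes was not tested, and Cre and the loss of Casz1 cannot be told apart. For the Xist pattern, the 9 WT and 15 CKO-labelled cells that share it were also compared alone. There, 2 of the 5 OHC markers were higher in CKO-labelled cells. It was also 2 against WT cells 1 to 11, where Slc26a5 was at 1649 CPM. Against WT cells 12 to 45, where Slc26a5 was at 576 CPM, 4 markers were higher. Against WT cells 46 to 48 it was 3. Of the 3 general hair cell markers, 1 was higher among cells with the Xist pattern and 1 against WT cells 1 to 11. It was 0 against WT cells 12 to 45 and 2 against WT cells 46 to 48. WT cells 46, 47 and 48, which differ most from the other WT cells in what follows, had mitochondrial shares of 4.19%, 5.43% and 4.53% and immediate early sums of 142, 2924 and 2915 CPM. Results against each run of WT cells are given for the set, for the folding, translocation to glycosylation and degradation genes, and for members with the highest ratios. For the smaller role groups they are given in part.

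Across the machinery, more genes were higher than lower in CKO-labelled cells, and 14 of those that were higher belong to protein folding. Of the 44 genes 30 (68.2%) had a higher CPM, beside 50.4% of all measured genes, and the median log2 ratio was 0.28 (order-statistic interval 0.059 to 0.53), beside 0.0092 over all measured genes. By contrast, large ratios of summed counts were no more frequent than elsewhere. At least 2-fold higher were 5 genes (11.4%), beside 15.1% of all measured genes, and at least 2-fold lower was 1 gene, Derl3, beside 14.5%. A pair share of at least 75% was reached by 3 genes (6.82%), Pdia3, Dnajb11 and Calr, beside 0.756% of all measured genes.

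The split of higher against lower genes depended on the scaling. DESeq2 size factors shifted all log2 ratios by -0.12, and 24 of the 44 genes were then higher, beside 43.3% of all measured genes; the 6 that changed side were Ssr2, Ssr4, Sec61g, Sec62, Spcs3 and Sel1l, each within 0.13 of 0. It depended more on which WT cells were used. Against WT cells 1 to 11 the median log2 ratio was 0.45, with 29 of 44 higher (beside 52.3%), and against WT cells 12 to 45 it was 0.20, with 31 of 44 higher (beside 50.1%). Against WT cells 46 to 48 it was -0.13, with 16 of 43 measured genes higher, beside 54.4%. Among the 24 cells with the Xist pattern it was 0.29, with 31 of 44 higher, beside 52.3%.

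The number at least 2-fold higher stayed below the background in these comparisons. It was 3 with DESeq2 factors (beside 12.7% of all measured genes), 9 among Xist-pattern cells (beside 24.4%), 5 against WT cells 1 to 11 (beside 22.2%), 7 against WT cells 12 to 45 (beside 17%) and 6 of 43 against WT cells 46 to 48 (beside 33.9%). Of the 5 genes past 2-fold against all WT cells, Stt3a, Hyou1 and Dnajb11 were under it against WT cells 1 to 11. Of the 6 against WT cells 46 to 48, Ero1l, Sec61a1 and Stt3a had no count in those 3 cells and were set against a floor of 3 counts over them. The exception was the ratio of median CPM per cell, which could be formed for 37 genes: 15 were at least 2-fold higher, beside 18.3%, and 3 at least 2-fold lower, beside 15.8%. Of those higher, Dnajc10, Syvn1, Derl2 and Uggt1 had WT medians of 0.0886 to 0.121 CPM, and Hyou1 of 2.448 CPM. Of those lower, Nploc4 had a CKO median of 0.678 CPM. Medians this near 0 depend on how many cells had a count. The other genes at least 2-fold higher were Calr, Pdia3, Pdia6, Creld2, Dnajb11, Manf, Ssr2, Rpn1, Derl1 and Edem2. Their WT medians ran from 27.9 CPM (Ssr2) to 377 CPM (Pdia3).

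**Figure D1:**
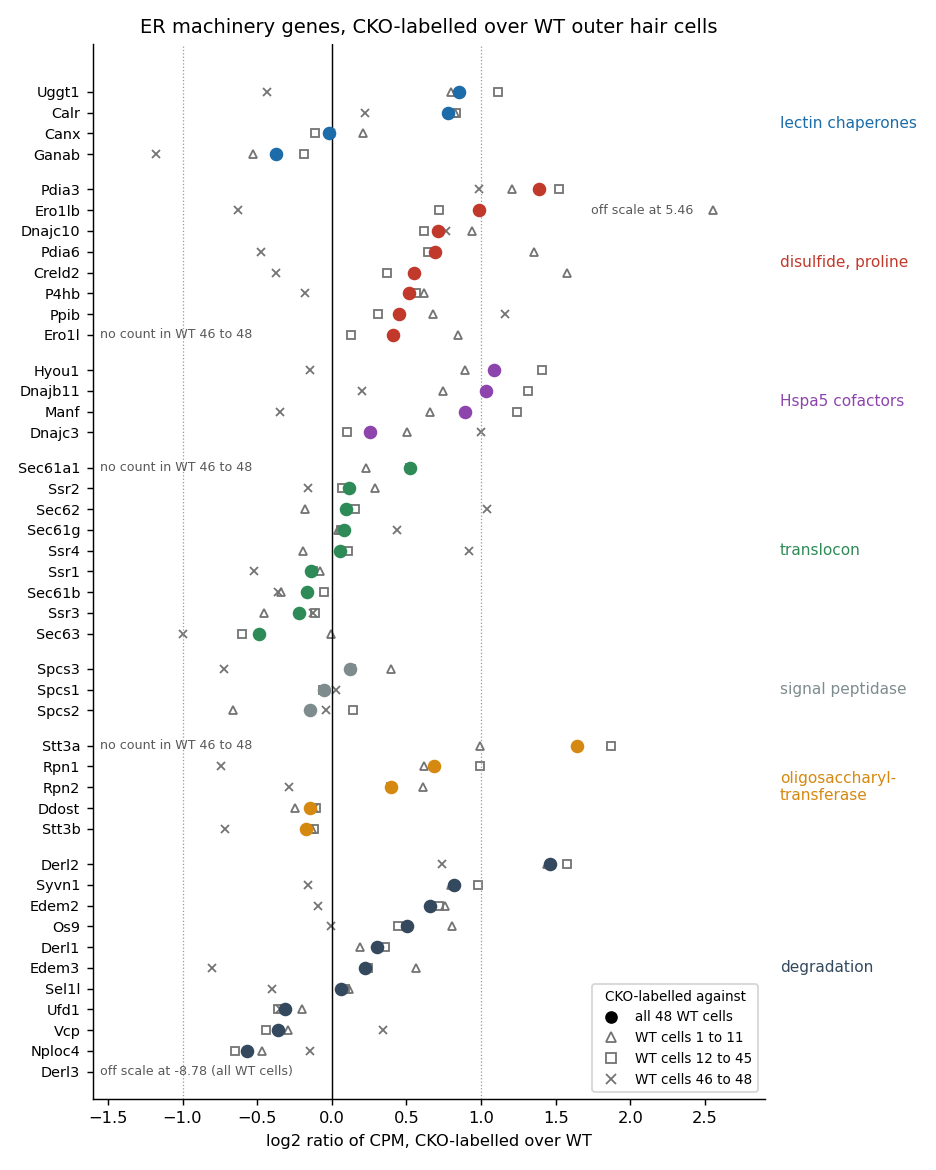
Each row is 1 of the 44 genes, grouped by role; the horizontal axis is the log2 ratio of CPM in CKO-labelled over WT cells. Filled points use all 48 WT cells and open or crossed marks use 1 run of WT cells each; dotted lines mark 2-fold. Filled points of the folding roles (blue, red and purple) lie right of 0 for 14 of 16 genes, while those of the translocon (green) lie near 0; crosses, for the 3 WT cells 46 to 48, often lie to the left of the other marks. Derl3 and 1 mark of Ero1lb are off scale and are given as text, as are 3 genes with no count in WT cells 46 to 48.

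The 16 folding genes together were at 1943 CPM in WT and 3357 CPM in CKO-labelled cells, with 14 of 16 higher and a median log2 ratio of 0.70. The 17 genes of translocation, signal cleavage and glycosylation were at 1994 and 2099 CPM, with 9 higher, 8 lower and a median of 0.053. The 11 degradation genes were at 1325 and 1293 CPM, with 7 higher, 4 lower and a median of 0.22 (0.19, 0.24 and -0.12 against the 3 runs of WT cells in turn). The gap between folding and the other roles was present against WT cells 1 to 11 (folding 0.81, translocation to glycosylation -0.045) and 12 to 45 (0.63 and 0.071), and when cells with the Xist pattern alone were used (0.73 and -0.063). With WT cells 46 to 48 it was small (-0.077 and -0.13), and 9 of the 16 folding genes were lower in CKO-labelled cells. The summed CPM of the folding genes was 3357 against 2915 there, of which Pdia3 alone made up 1210 against 611.

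In single cells the folding genes summed to 744 to 3843 CPM with a median of 1726 in WT cells, and to 740 to 5296 CPM with a median of 3735 in CKO-labelled cells. WT cells 46, 47 and 48 held 3663, 1980 and 3116 CPM. The genotypes overlapped, yet 14 of 17 CKO-labelled cells lay above the WT median and 5 above the highest WT cell, for a pair share of 79.9%. The other roles overlapped almost fully. Translocation, cleavage and glycosylation genes ran from 1054 to 3104 CPM (median 1985) in WT and from 1148 to 3048 CPM (median 2088) in CKO-labelled cells, and degradation genes from 546 to 2221 CPM (median 1235) and from 554 to 2360 CPM (median 1185). Their pair shares were 56.99% and 45.96%.

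**Figure D2:**
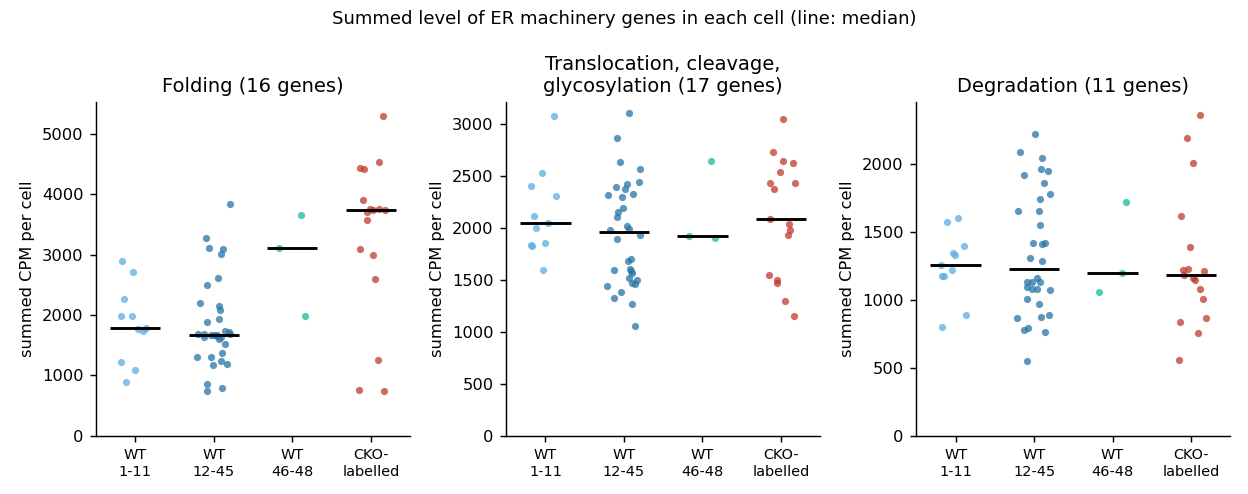
Summed CPM per cell of the folding genes (left), of the translocation, cleavage and glycosylation genes (middle) and of the degradation genes (right). Each point is 1 cell, the black line is the median, and WT cells are split into the 3 runs of their numbers. Folding sums of CKO-labelled cells have a median of 3735 against 1726 CPM over all WT cells, with 3 CKO-labelled cells at 740, 753 and 1252 CPM; the other panels overlap throughout.

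The CKO-labelled cells were not uniform. Over all 44 genes, cell 4 held 2857 CPM and cell 7 held 3101 CPM, both below the lowest WT cell at 3341 CPM, while cells 1 and 14 held 8924 and 8939 CPM, above the highest WT cell at 7505 CPM. Cell 4 had no count of Pdia3 and cell 7 only 2.81 CPM of Hspa5, whereas cell 1 had 2603 CPM of Pdia3 and 4864 CPM of Hspa5. Cells 4 and 7 also had the highest mitochondrial shares of the CKO-labelled cells, 9.58% and 7.86%, and immediate early sums of 142 and 931 CPM, against 4.02% and 3074 CPM in cell 1 and 2.50% and 10898 CPM in cell 14; the part of these in the set's level was not tested. No cell had counts for all of the genes: WT cells had counts for 25 to 40 of the 44 genes (median 36) and CKO-labelled cells for 29 to 40 (median 37).

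The lectin chaperones and glycan sensors gave mixed values. Calr (calreticulin, which holds glycoproteins in the ER lumen and binds calcium; chr8:84841850-84846934 on mm10, minus strand) was at 192 CPM (191 to 193) in WT and 329 CPM (326 to 331) in CKO-labelled cells. It ran from 1.54 to 413 CPM with a median of 164 over WT cells and from 2.08 to 781 CPM with a median of 356 over CKO-labelled cells. The log2 ratio was 0.78 (0.76 to 0.79), with a pair share of 75.1% and 6 of 17 CKO-labelled cells above every WT cell. It was 0.82 and 0.83 against WT cells 1 to 11 and 12 to 45, and 0.22 against WT cells 46 to 48, which held 377, 152 and 320 CPM. A pseudogene, Calr-ps, is annotated, and the sources used here do not say how reads shared with it were counted.

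Canx (calnexin, the membrane-bound counterpart of calreticulin; chr11:50293961-50325673, minus strand) did not share that pattern. It ran from 77.4 to 876 CPM with a median of 283 over WT cells and from 85.9 to 579 CPM with a median of 303 over CKO-labelled cells. Genotype levels were 331 and 326 CPM, for a log2 ratio of -0.021 and a pair share of 51.4%. Uggt1, which re-glucosylates proteins that are not yet folded, had a log2 ratio of 0.85, and Ganab, the glucosidase subunit that trims the sugar, had -0.37. Neither kept its sign throughout: Uggt1 was at -0.43 against WT cells 46 to 48, and Ganab at 0.044 over the cells with the Xist pattern.

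All 8 disulfide and proline isomerases and oxidases were higher in CKO-labelled cells. Their median log2 ratio was 0.62, and together they were at 1003 and 2026 CPM. The same 8 were higher with WT cells 1 to 11, with WT cells 12 to 45 and within the Xist pattern. These comparisons reuse the same cells and are not independent of the first. With WT cells 46 to 48, 4 of the 8 were higher, at 1538 and 2026 CPM summed, of which Pdia3 made up 611 and 1210 CPM. Most of the difference in summed level came from Pdia3, the disulfide isomerase that works with calnexin and calreticulin (chr2:121413775-121438687, plus strand, with 18 exon bases shared with Catsper2 on the other strand). Pdia3 ran from 0.112 to 1526 CPM with a median of 377 over WT cells, and from 0 to 2603 CPM with a median of 1331 over CKO-labelled cells. It stood at 463 CPM (462 to 465) in WT and 1210 CPM (1205 to 1215) in CKO-labelled cells, a log2 ratio of 1.38 (1.38 to 1.39).

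Pdia3 separated the cells most clearly among the 44 genes. The pair share was 82.0%, 15 of 17 were above the WT median, and 5 were above the highest WT cell, though cell 4 had no count and cell 7 only 101 CPM. Against WT cells 1 to 11, 12 to 45 and 46 to 48 its log2 ratio was 1.21, 1.52 and 0.99; cells 46, 47 and 48 held 374, 464 and 1016 CPM. Without Pdia3 the set summed to 2939 to 7132 CPM (median 4756) over WT cells and to 2857 to 7452 CPM (median 5884) over CKO-labelled cells. That change took the pair share of the set from 76.4% to 69.6% and the number of CKO-labelled cells above every WT cell from 7 to 2.

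The other isomerases differed less. Pdia6, an isomerase of the Hspa5 complex, had a log2 ratio of 0.69 (158 and 255 CPM), and P4hb, the classic protein disulfide isomerase, had 0.51 (142 and 203 CPM). Dnajc10, a reductase that helps remove misfolded chains, was at 0.71 (43.3 and 70.8 CPM), Creld2 at 0.55 (130 and 190 CPM), and Ppib, the proline isomerase cyclophilin B, at 0.45 (42.2 and 57.8 CPM). Exons of Ppib share 825 bases with Snx22 on the other strand. The oxidases that recharge the isomerases were sparse. Ero1l had counts in 18 of 48 WT and 8 of 17 CKO-labelled cells (log2 ratio 0.41), and Ero1lb in 22 and 6.

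Ero1lb stood just under the 2-fold mark at 0.99, but 47.7% of its CKO counts came from cell 14. Without that cell the ratio was 0.17. Over all cells the pair share of Ero1lb, in which ties count 0.5, was 47.3%. Since 26 of 48 WT and 11 of 17 CKO-labelled cells had no count, many of its pairs are ties. Just above the mark was Dnajb11, with 1.03.

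The 4 cofactors of Hspa5 and small secreted factors were all higher in CKO-labelled cells (median log2 ratio 0.96, with 278 and 522 CPM summed). Against WT cells 46 to 48, 2 of the 4 were higher, with a median of 0.026 and 493 and 522 CPM summed. Dnajb11 (ERdj3, a J-protein that hands unfolded chains to Hspa5; chr16:22857845-22879634, plus strand) ran from 0 to 472 CPM with a median of 135 over WT cells and from 0 to 594 CPM with a median of 320 over CKO-labelled cells. It was at 150 CPM in WT and 307 CPM in CKO-labelled cells, with a log2 ratio of 1.03 (1.02 to 1.05), a pair share of 75.9% and 4 CKO-labelled cells above every WT cell. The ratio came just under 2-fold when any 1 of 6 cells was left out (CKO cells 2, 6, 13 and 14 and WT cells 8 and 45), and the lowest of these values was 0.94. Its log2 ratio was 0.75 against WT cells 1 to 11, 1.32 against 12 to 45, and 0.20 against 46 to 48, which held 113, 226 and 472 CPM; within the Xist pattern it was 0.55.

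Hyou1 (an Hsp110-type exchange factor of Hspa5; chr9:44379490-44392369, plus strand) was sparser. It ran from 0 to 148 CPM with a median of 2.448 over WT cells and from 0.0687 to 261 CPM with a median of 21.4 over CKO-labelled cells. Its levels of 25.9 and 55.0 CPM gave a log2 ratio of 1.08 (1.05 to 1.12), while the pair share was only 62.4%. The ratio was 0.68 without CKO cell 9, 0.80 without CKO cell 14 and 0.97 without CKO cell 3, and 0.89, 1.41 and -0.15 against the 3 runs of WT cells in turn; WT cells 46 to 48 held 87.8, 19.7 and 76.3 CPM. Manf, a secreted factor that also binds Hspa5, was at 59.0 and 109 CPM (0.89), and Dnajc3, another J-protein, at 43.01 and 51.3 CPM (0.25, and -0.29 without CKO cell 1).

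**Figure D3:**
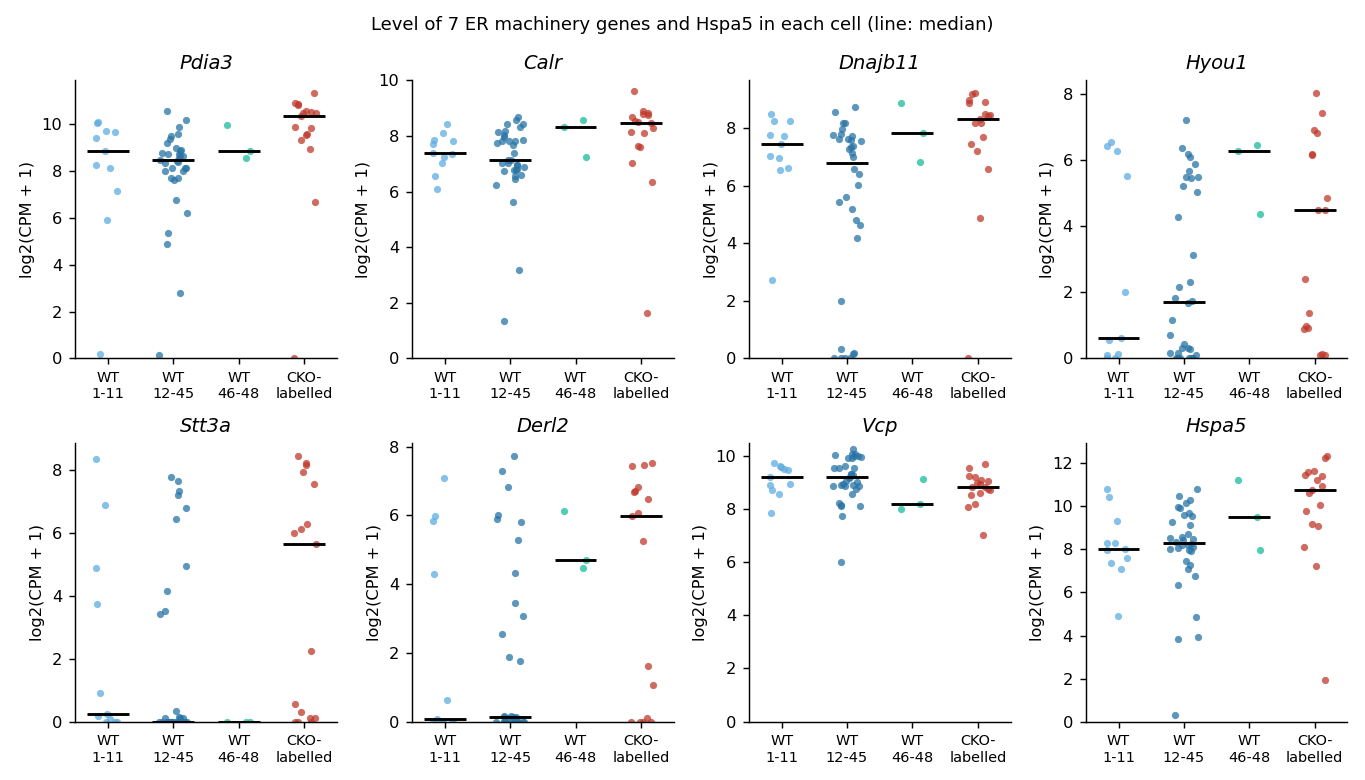
Level per cell, as log2(CPM + 1), of 7 of the genes and of Hspa5; each point is 1 cell, the black line is the median, and WT cells are split into the 3 runs of their numbers. Pdia3 and Hspa5 lie higher in most CKO-labelled cells, at medians of 1331 and 1707 CPM against 377 and 306 CPM in WT cells; Stt3a, Derl2 and Hyou1 have many cells at or near 0; Vcp lies slightly lower in CKO-labelled cells.

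The translocon and its associated proteins stood at nearly the same level in both genotypes, 1083 and 1040 CPM summed, with 5 of 9 higher, 4 lower and none past 2-fold. The pair share of their summed level was 47.3%. Of the channel subunits, Sec61b was at 171 and 152 CPM (log2 ratio -0.16), Sec61g at 121 and 128 CPM (0.079), and the pore itself, Sec61a1, at 16.1 and 23.1 CPM (0.53). Sec61a1 had counts in 21 of 48 WT and 10 of 17 CKO-labelled cells, and none in WT cells 46 to 48. The log2 ratio of the post-translational partners was 0.096 for Sec62 and -0.49 for Sec63.

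The TRAP subunits, which assist insertion at the channel, were likewise close. Their log2 ratios were -0.14 for Ssr1, 0.11 for Ssr2, -0.22 for Ssr3 and 0.053 for Ssr4. The most abundant of them, Ssr3, ran from 0.223 to 714 CPM with a median of 224 over WT cells and from 20.0 to 512 CPM with a median of 204 over CKO-labelled cells. Ratios as near to 0 as those of Ssr2, Ssr4, Sec61g and Sec62 are smaller than the shift that DESeq2 factors give to every gene, and were below 0 under it.

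The signal peptidase subunits differed little as well, with a median log2 ratio of -0.050 and 398 against 382 CPM summed. Spcs1 ran from 47.5 to 769 CPM with a median of 272 over WT cells and from 59.5 to 618 CPM with a median of 281 over CKO-labelled cells, a pair share of 48.04%. Spcs2, for which the pseudogene Spcs2-ps is annotated, was at 89.97 and 81.3 CPM. Spcs3 was counted in 25 of 48 WT cells but in 4 of 17 CKO-labelled cells, and its small positive ratio (0.12) became -0.46 without CKO cell 5.

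Of the 5 oligosaccharyltransferase genes 3 were higher and 2 lower, at 512 and 677 CPM summed. Against WT cells 46 to 48, 1 of the 5 was higher, at 806.5 and 677 CPM summed. Stt3a, the catalytic subunit that glycosylates chains as they enter (chr9:36729344-36767679, minus strand), had the highest log2 ratio of the 44 genes, 1.64 (1.61 to 1.67), at 31.2 CPM in WT and 97.5 CPM in CKO-labelled cells. It was counted in 23 of 48 WT cells (47.9%, exact binomial interval 33.3 to 62.8%). Of the 17 CKO-labelled cells, 14 had a count (82.4%, 56.6 to 96.2%). It ran from 0 to 322 CPM with a median of 0 over WT cells and from 0 to 342 CPM with a median of 49.4 over CKO-labelled cells, with a pair share of 71.6%. WT cell 5 alone held 32.2% of its WT counts, and the log2 ratio without it was 2.16; over all cells left out in turn it ran from 1.36 to 2.16. Against WT cells 1 to 11 it was 0.99, just under 2-fold, against 12 to 45 it was 1.87, and WT cells 46 to 48 had no count.

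Stt3b, the paralogue that acts on sites missed at entry, did not move with Stt3a. It was at 82.2 and 73.0 CPM, a log2 ratio of -0.17, and counted in 43 of 48 WT and 14 of 17 CKO-labelled cells. The shared subunits Rpn1 and Rpn2 had log2 ratios of 0.68 (115 and 185 CPM) and 0.40 (159 and 209 CPM), and Ddost had -0.15. Against WT cells 46 to 48, Rpn1 was at -0.74 and Rpn2 at -0.29.

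Of the 11 degradation genes 7 (63.6%) were higher in CKO-labelled cells, beside 50.4% of all measured genes, though Sel1l turned lower with DESeq2 factors. Against WT cells 46 to 48, 3 of 10 measured genes were higher, beside 54.4%. Lower against all WT cells were Derl3 and the 3 genes of the cytosolic extraction complex, Vcp, Ufd1 and Nploc4. Derl2, a rhomboid-like protein of the exit channel (chr11:71007164-71019841, minus strand, with 231 exon bases shared with Mis12 on the other strand), was at 22.9 and 63.1 CPM, a log2 ratio of 1.46. It ran from 0 to 210 CPM with a median of 0.106 over WT cells and from 0 to 184 CPM with a median of 62.6 over CKO-labelled cells, with counts in 29 of 48 and 13 of 17 cells and a pair share of 68.0%. No CKO-labelled cell passed the highest WT cell. The log2 ratio was 1.44, 1.58 and 0.74 against the 3 runs of WT cells in turn.

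The ubiquitin ligase Syvn1 (Hrd1) was at 20.5 and 36.2 CPM, a log2 ratio of 0.82, and its partner Sel1l at 152 and 158 CPM, 0.059. The mannose-trimming enzymes Edem2 and Edem3 had log2 ratios of 0.66 and 0.22, and Derl1 had 0.31. The lectin Os9 was at 0.50, but cell 14 held 49.2% of its CKO counts, and the ratio was -0.36 without that cell. Derl3, a relative of Derl2, was the 1 gene at least 2-fold lower, at 6.61 CPM in WT and 0.0150 CPM in CKO-labelled cells. It was counted in 5 of 48 and 2 of 17 cells, and WT cell 36 held 45.1% of its WT counts; without that cell it was at 3.72 CPM, under the 5 CPM mark. Its log2 ratio was -8.78 (-11.1 to -7.23) and its pair share 50.2%, so the ratio rests on few cells.

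Vcp, the ATPase that extracts ubiquitinated chains (chr4:42979963-43000507, minus strand, with 352 exon bases shared with a gene on the other strand), had the highest CPM of the 44 genes in WT cells. It ran from 63.8 to 1221 CPM with a median of 565 over WT cells and from 128 to 827 CPM with a median of 455 over CKO-labelled cells. Levels were 603 CPM (601 to 605) and 470 CPM (467 to 473), a log2 ratio of -0.36 (-0.37 to -0.35), and the pair share was 36.2%. Its cofactors Ufd1 and Nploc4 had log2 ratios of -0.32 and -0.57. Against WT cells 46 to 48, which held 289, 561 and 257 CPM of Vcp, the ratio of Vcp was 0.34, while Ufd1 was at -0.35 and Nploc4 at -0.15.

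Levels of different genes were compared per kilobase of exon, since the cDNA is full length and longer transcripts yield more counts. In WT cells Spcs1 was highest at 182 CPM per kb, followed by Pdia3 at 148, Sec61b at 134, Vcp at 124 and Creld2 at 95.1 CPM per kb. At the other end were the oxidase Ero1lb at 1.496 and the channel pore Sec61a1 at 2.39 CPM per kb, far below its small partner Sec61b. In CKO-labelled cells Pdia3 came first at 386 CPM per kb, ahead of Spcs1 at 176.

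**Figure D4:**
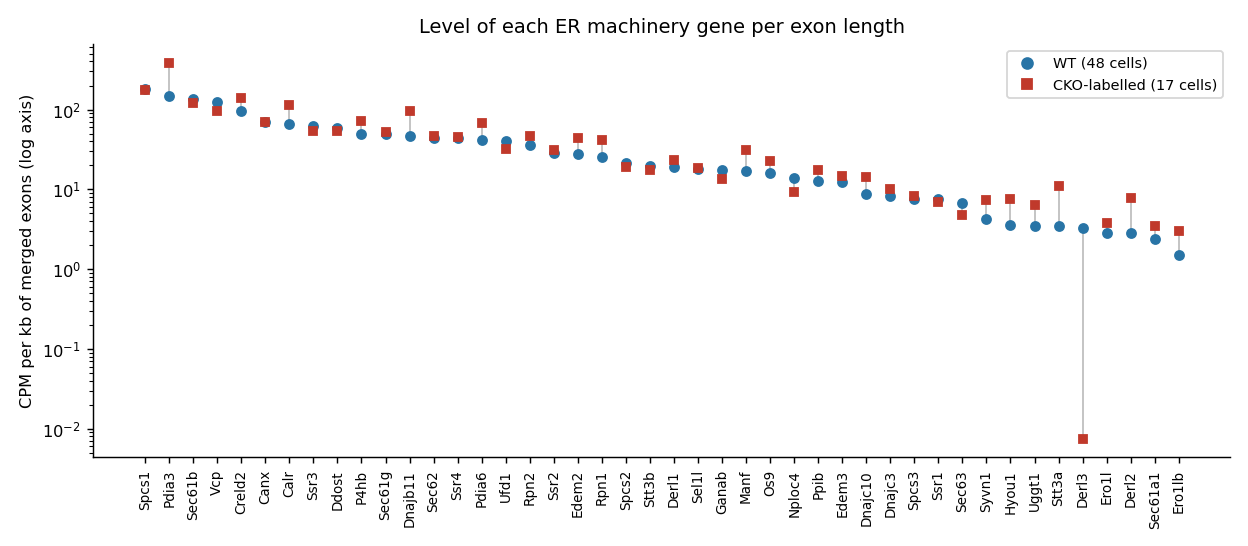
CPM per kilobase of merged exons, on a log axis, for the 44 genes ordered by their level in WT cells; circles are the 48 WT cells summed and squares the 17 CKO-labelled cells summed, joined by a line. Pdia3 passes from second to first place, 148 against 386 CPM per kb, and Derl3 has the longest line, from 3.32 to 0.00753 CPM per kb.

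A feature that the choice of genes did not use is the ER stress element in the promoter. Promoters were taken from RefSeq (GRCm38.p6), as 300 bases from 250 before to 50 after each annotated start, and were found for 38 of the 44 genes. The full element, ERSE, was searched on both strands as CCAAT and CCACG with 9 bases of any kind between them. It was present in 8 of these 38 genes (21.1%), against 0.137% of the 27025 genes of the table. They were Calr, Canx, Pdia6, Ero1lb, Creld2, Dnajc3, Syvn1 and Derl3. The shorter ERSE-II, ATTGG and CCACG with 1 base between them, was present in Dnajb11 (all genes 0.0444%), and the XBP1 motif TGACGTGG in Vcp (all genes 0.714%). ERSE and ERSE-II share the CCACG end, but no member promoter held more than 1 kind of these motifs. The windows of 6 members are printed, those with the highest (Ero1lb) and lowest (Derl3) ratio among genes with this element included, and that of Hspa5 for comparison; capitals mark the ERSE, and where it lies on the opposite strand the run starts with CGTGG and ends with ATTGG.
Calr: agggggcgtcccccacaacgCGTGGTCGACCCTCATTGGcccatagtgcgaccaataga
Canx: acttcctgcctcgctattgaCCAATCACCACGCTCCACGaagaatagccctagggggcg
Pdia6: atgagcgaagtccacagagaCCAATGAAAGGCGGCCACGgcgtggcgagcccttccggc
Ero1lb: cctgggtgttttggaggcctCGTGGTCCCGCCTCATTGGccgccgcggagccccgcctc
Creld2: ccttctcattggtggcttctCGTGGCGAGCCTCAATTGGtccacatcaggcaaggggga
Derl3: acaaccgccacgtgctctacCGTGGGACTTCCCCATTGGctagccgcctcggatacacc
Hspa5: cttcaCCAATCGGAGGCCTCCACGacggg

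Each window is written 5′ to 3′ on the strand of its gene. They lie at chr8:84847055-84847113 (Calr, minus strand), chr11:50325780-50325838 (Canx, minus), chr12:17266471-17266529 (Pdia6, plus), chr13:12565662-12565720 (Ero1lb, plus), chr15:88819500-88819558 (Creld2, plus), chr10:75893222-75893280 (Derl3, plus) and chr2:34772020-34772048 (Hspa5, plus). The match began 162 bases before the start of Calr, 145 before that of Canx, 98 before Pdia6, 201 before Ero1lb, 126 before Creld2, 156 before Derl3 and 65 before Hspa5. These starts are those of RefSeq; in GENCODE the match of Hspa5 lies inside an exon, and the other printed matches do not. The log2 ratios of these genes were 0.78 (Calr), -0.021 (Canx), 0.69 (Pdia6), 0.99 (Ero1lb), 0.55 (Creld2), -8.78 (Derl3) and 1.95 (Hspa5).

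Of the 9 genes with an ERSE or ERSE-II, 7 were higher in CKO-labelled cells and 1 was at least 2-fold higher, with a median log2 ratio of 0.69. Of the 29 genes with neither, 17 were higher and 3 at least 2-fold higher, with a median of 0.079. Both sets spanned both signs (-8.78 to 1.03 and -0.57 to 1.64). Of all measured genes 50.4% were higher and 15.1% at least 2-fold higher. Except for Syvn1 and Derl3, the genes with an ERSE or ERSE-II are folding genes, whose median was 0.70. The part of role in this difference was not tested. Against WT cells 46 to 48, Calr (0.22), Dnajb11 (0.20) and Dnajc3 (1.00) were higher. Lower there were Pdia6 (-0.47), Ero1lb (-0.63), Creld2 (-0.37), Syvn1 (-0.16) and Canx (-0.00685), and Derl3 had no count in those cells. Pdia3, Stt3a and Derl2, which had the highest ratios, had none of these 3 motifs in the window searched; Hyou1 and Manf were not in the promoter table. A match of letters describes the window and does not show that a factor binds there.

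The members were also set beside 69 other genes of the same pathway. Of these 67 were measured, 46 higher and 21 lower (68.7% higher), with 9 at least 2-fold higher (13.4%), 5 at least 2-fold lower and a median log2 ratio of 0.15. Of all measured genes 50.4% were higher, 15.1% at least 2-fold higher and 14.5% at least 2-fold lower. Of the 20 folding genes measured, 14 were higher (7 past 2-fold) and 6 lower (3 past 2-fold), with a median of 0.37. Hspa5 was at 511 and 1974 CPM (log2 ratio 1.95), with 0.240 to 2361 CPM and a median of 306 over WT cells and 2.81 to 5131 CPM and a median of 1707 over CKO-labelled cells. Of the 17 CKO-labelled cells 7 were above every WT cell. Against WT cells 46 to 48, which held 720, 246 and 2361 CPM, the log2 ratio of Hspa5 was 0.86.

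Of the other folding genes Fkbp11 had a log2 ratio of 2.39, Erp44 of 1.52 and Mogs, the glucosidase that acts first on the sugar, of -2.25; they were counted in 7, 20 and 19 of 48 WT cells. Hsp90b1 (Grp94), named after its values were seen because its promoter holds 2 matches of ERSE, was at 239 and 593 CPM (1.31; 0.21 against WT cells 46 to 48). Among 20 translocation genes 13 were higher, 1 by at least 2-fold, and the median was 0.066. That 1 was Sec11c, an alternative catalytic subunit of signal peptidase, at 190 and 400 CPM (1.08, pair share 85.9%); the other catalytic subunit, Sec11a, was at 79.9 and 95.6 CPM (0.26). Srp14 of the signal recognition particle was at 0.59 (pair share 81.3%), Sec61a2 at -0.95 and Emc10 at -0.81.

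Among 7 further oligosaccharyltransferase genes 6 were higher, none by 2-fold (median 0.13), with Magt1 at 0.43, Krtcap2 at 0.22, Dad1 at 0.15 and Ostc at -0.39. Of the 20 degradation genes, 13 were higher (1 past 2-fold) and 7 lower (2 past 2-fold), with a median of 0.15. Herpud1, which organises the ligase complex, was at 90.9 and 301 CPM (1.73, pair share 75.7%; 0.50 against WT cells 46 to 48). Rnf5, a ubiquitin ligase of the ER membrane whose exons overlap a gene on the other strand, was at 79.2 and 155 CPM (0.97, pair share 83.2%). Lower were Rnf185, the paralogue of Rnf5, at 22.6 and 4.77 CPM (-2.24, counted in 1 of 17 CKO-labelled cells) and the glycan-removing enzyme Ngly1 at 58.5 and 18.2 CPM (-1.69).

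Within a genotype, cells with more Hspa5 tended to have a higher summed level of folding genes. Spearman's rho between these was 0.61 over 48 WT cells, 0.53 over the 34 WT cells 12 to 45 and 0.77 over 17 CKO-labelled cells. For the translocation, cleavage and glycosylation genes it was 0.24, 0.36 and 0.59, and for the degradation genes 0.067, 0.27 and -0.0074. These are descriptions: the values of a cell share 1 library and 1 total, and the summed level of all 44 genes had a rho of 0.12 with total counts in WT and 0.25 in CKO-labelled cells. Among single members Pdia3 followed Hspa5 most closely in WT cells (0.64), ahead of Canx (0.43), Calr (0.39) and Manf (0.38). In CKO-labelled cells the highest were Manf (0.80), Pdia3 (0.71) and Rpn1 (0.71). Over all 946 pairs of members the median rho was 0.025 in WT and 0.064 in CKO-labelled cells; over the 120 pairs of folding genes it was 0.055 in WT and 0.20 in CKO-labelled cells, where 83 pairs were above 0.

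**Figure D5:**
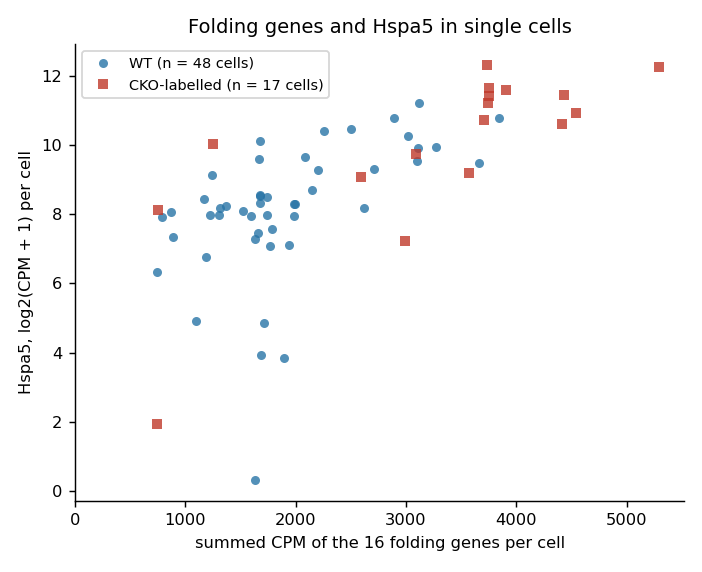
Hspa5 per cell, as log2(CPM + 1), against the summed CPM of the 16 folding genes in the same cell; circles are WT cells (n = 48) and squares CKO-labelled cells (n = 17). Both kinds of cell run from lower left to upper right (rho 0.61 and 0.77), and most CKO-labelled cells lie at the upper right, apart from 3 with folding sums of 740, 753 and 1252 CPM.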

How the data were processed

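The authors deposited 1 table of raw counts, genes by 65 single cells; per the submitters' processing notes the authors used HISAT2 2.2.1, StringTie 2.2.1 and featureCounts 2.0.1 with mm10. The tool that made the counts, the annotation, the strand setting and any filters were not given in the sources used here, so reads of genes with exons on opposite strands cannot be told apart; this touches 16 of the 44 genes. Full-length cDNA came from a Smart-Seq HT kit, per the labels' protocols, without molecular identifiers, and the protocol text speaks of inner hair cells and induced OHCs, whereas titles and design name OHCs, which were followed. All columns matched 1 sample title, and no cell was removed. As each cell was picked on its own, doublets were not called.

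Counts were summed per genotype and divided by the summed total, times 1000000. Sums have exact Poisson intervals, log2 ratios exact conditional (Clopper-Pearson) intervals and shares of cells exact binomial intervals; a group without a count was set to 3 counts over the group. Ties count 0.5 in the pair share. Python 3.11.15 (pandas 2.3.3, numpy 2.4.6, scipy 1.17.1, matplotlib 3.10.9) and R 4.3.3 were used, the script was tested on simulated data, and scaling factors came from edgeR 4.0.16 and DESeq2 1.42.0. GENCODE M21 (GRCm38) gave positions and exon lengths for all 44 genes, and 53292 of 55292 symbols (96.4%) were in it; promoters came from RefSeq (GRCm38.p6).

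The members, the lists, the runs of WT cells and the rule for named genes were chosen with earlier results of these data known. The rule gives values per cell for members with at least a 2-fold ratio, a pair share of at least 75% or a place among the 6 highest CPM, up to 4 genes of each other list with the largest ratio, Hspa5, Slc26a5, Ocm and Casz1. The Xist pattern needed 10 or more counts of Xist and under 10 summed over 4 Y-linked genes. Alternatives were the mean or median of per-cell CPM, TMM and median-of-ratios factors, a total without mitochondrial and ribosomal protein genes, no filter or 20 CPM, the mean over members, detection at 10 counts, Xist-pattern cells, each run of WT cells, and each cell left out in turn. The sum without Pdia3 and the immediate early list were added after the data were seen.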

Additional observations from a re-analysis of the deposited data

How the results depend on the processing

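The median log2 ratio of the 44 genes stayed above 0 (0.11 to 0.45) under every alternative except WT cells 46 to 48 alone, where it was -0.129 with 16 genes higher; Hyou1, at least 2-fold higher against all WT cells, was -0.148 there. The number at least 2-fold higher was 3 with DESeq2 factors and 9 among Xist-pattern cells (beside 24.4% of all measured genes). With the median of per-cell CPM it was 15 of 37 (beside 18.3%), and 3 were at least 2-fold lower. Of those 15, Dnajc10, Syvn1, Derl2 and Uggt1 had WT medians near 0, and apart from Hyou1 (2.448 CPM) the others had 27.9 CPM or more. With at least 20 CPM 0 genes were 2-fold lower, since Derl3 is under that level. With each cell left out in turn the median ran from 0.22 to 0.37, the number higher from 28 to 31, the number at least 2-fold higher from 3 to 6 and the number at least 2-fold lower from 0 to 1. Without WT cell 8 Manf passed 2-fold (1.02), as did Syvn1 without WT cell 7 (1.02) or 32 (1.04) and Ero1lb without any 1 of 20 cells. Of 474 values of single genes under alternatives 418 kept their sign and 56 did not; 14 genes never changed sign. Of 88 shares of cells with a count 72 stayed within their interval at 10 counts. TMM factors moved all log2 ratios by -0.043 and the reduced total by -0.031. No paired analysis was possible because the result comes from no test, and numbers shared between genotypes only name cells. With 1 sample per genotype and animals not named, no result here has a replicate check.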

Other observations

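Ighm, the gene of an immunoglobulin heavy chain and a marker of antibody-secreting cells, was counted in every cell, at levels of 10242 (WT) and 9374 CPM (CKO-labelled). The other markers of such cells were near 0: Jchain had a count in 1 CKO-labelled cell (3.82 CPM over the genotype) and in no WT cell, and Mzb1 was counted in 14 of 48 and 4 of 17 cells. The part of Ighm in the levels of the ER genes was not tested.

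In 3 families of the set, picked after their values were seen, members of a family differed in direction or size between the genotypes. Log2 ratios were 1.64 for Stt3a and -0.17 for Stt3b, 1.46 for Derl2, 0.31 for Derl1 and -8.78 for Derl3, and 0.78 for Calr and -0.021 for Canx. Outside the set, Rnf5 was at 0.97 and Rnf185 at -2.24. These differences between genes were not tested.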
